A study of Gallus gallus with 17 samples.

Results

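Adipose gene expression shared by the Fayoumi and Leghorn chicken lines was compared with that of broilers, the fast-growing meat birds. The study's stated aim was to find pathways associated with leanness, and Fayoumi and Leghorn are leaner than broilers and are called the lean lines here. One contrast set the average of the Fayoumi mean and the Leghorn mean against the broiler mean. A probe set, the group of short probes that reports on 1 transcript, was kept if it differed from broiler at an adjusted p under 0.05 in this contrast and in each lean line alone, in the same direction. Of 37693 chicken probe sets, 241 met this rule, which is 0.639% of all. Of these, 96 were higher in both lean lines (0.255%) and 145 were lower (0.385%). The 241 probe sets stand for 160 named genes, 61 higher and 99 lower, while 64 probe sets are unnamed here and 1 carries several symbols. They were chosen by their differences from broiler, so those differences are given as a description and without a test.

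Adipose tissue came from male birds aged 3 weeks. In the labels the lines are Broiler, Fayoumi M 5.1 and Leghorn GHs 13. No treatment is named and the fat depot is not stated. Each of 17 arrays is a biological replicate of its line in the labels, which do not say whether RNA was pooled, so p-values reflect no more than the variation among these samples. The contrast used 15 arrays, broiler replicates 2 to 6, Fayoumi replicates 1 to 5 and Leghorn replicates 1 and 3 to 6. Values are log2 expression, listed in that replicate order, with n = 5 in each line and SE for the standard error of a log2 difference. In a bulk tissue sample, fewer cells of a type and less RNA per cell cannot be told apart.

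Chicken adipocytes store triglyceride in a droplet coated by perilipins. Most of the fatty acid they store is made in the liver and arrives on lipoproteins, but adipocytes also desaturate, elongate, burn and release fatty acids. Blood vessels, immune cells and progenitors share the tissue and exchange Wnt, bone morphogenetic protein and cytokine signals with the fat cells. The level of adipocyte markers differed from gene to gene. FABP4, the fatty acid binding protein of fat cells, was at a mean of 15.97 in broiler, 16.12 in Fayoumi and 15.97 in Leghorn. None of the 14 measured adipocyte markers was among the 160 genes, which are 1.23% of all 13008 genes. By the average of the lean lines, 4 of the 14 lay higher and 9 lower, with a median log2 difference of -0.14.

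The arrays labelled broiler 1 and Leghorn 2 did not lie with their lines, and this bears on every count. On a scale where broiler is 0 and the average of the lean lines is 1, taken over the selected probe sets with a difference over 1, broiler 1 was placed at 1.04 and Leghorn 2 at 0.149. Both were left out because they lie with the other line. The other broiler arrays lay between -0.0598 and 0.243, the Fayoumi arrays between 0.997 and 1.01 and the other Leghorn arrays between 0.831 and 1.0, each measured over probe sets chosen without that array. With all 17 arrays as labelled, limma called 0 probe sets by the rule. In that fit, 42 passed in the average of the lean lines and 0 in Leghorn alone, where the lowest adjusted p was 0.835. For Leghorn, 1840 of 37693 unadjusted p-values were under 0.05, close to the share that chance alone gives. Unadjusted p was under 0.05 in all 3 contrasts, in the same direction, for 693 probe sets as labelled (1.84% of all), 200 of the 241 among them. The 241 were chosen on 15 of these 17 arrays, so that overlap is no independent check.

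**Figure D1:**
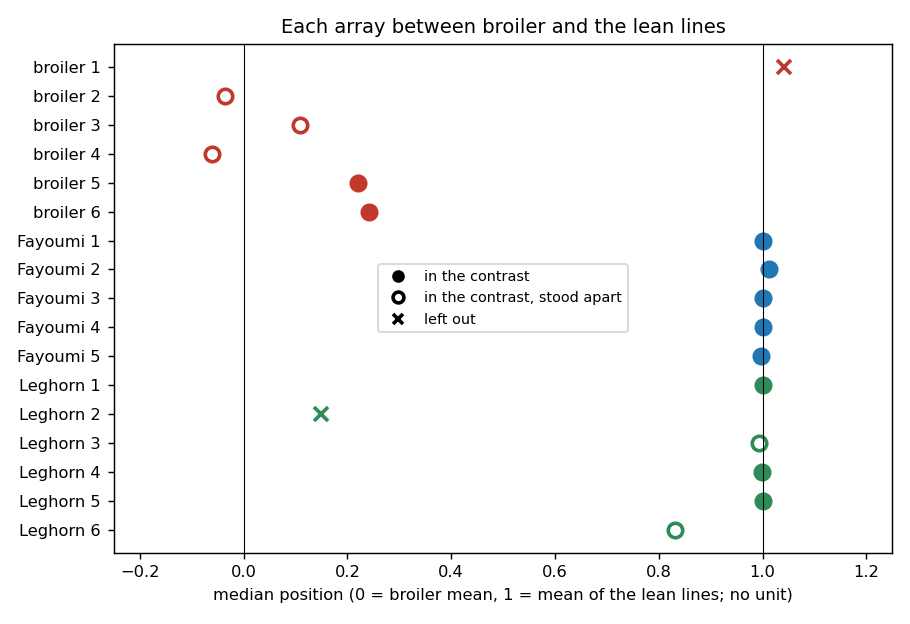
Median position of each array (horizontal axis, no unit) between the broiler mean, at 0, and the mean of the lean lines, at 1. Filled circles are arrays of the contrast, open circles those of the contrast that stood apart on the first principal component, and crosses the 2 arrays left out, with broiler 1 at 1.04 and Leghorn 2 at 0.149.

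A further 5 arrays, broiler 2, 3 and 4 and Leghorn 3 and 6, stood apart on the first principal component, which carried 52.9% of the variance over 19345 probe sets. They scored 0.210 to 0.477 there, while the remaining 12 scored -0.191 to -0.125. The 3' probe sets of beta-actin exceeded the 5' ones, a gap that widens as RNA is degraded, by 1.49 to 1.92 on the 5 and by 1.91 to 2.70 elsewhere. Without them 357 probe sets met the rule, 118 of the 241 among them. The median size was 0.902 times that on 15 arrays. All 241 kept their sign, which leaving arrays out could not change at the 209 without overlap between lean and broiler. With the state of the 5 arrays as a covariate, 283 met the rule, 171 of the 241 among them. Of the 241, 166 lay farther from the lean mean on broiler 2, 3 and 4 than on broiler 5 and 6, with a median gap of 1.51 against 1.24. The fit without the 5 arrays keeps broiler 5 and 6, Fayoumi 1 to 5 and Leghorn 1, 4 and 5, so its values rest on few broiler arrays. For many genes below, the difference without these 5 arrays stands beside the main one. Of 30 named genes, 20 still met the rule without them. Those that no longer met it were SCD5, ELOVL6, MLYCD, HIBCH, PLIN2, RASD1, WIF1, DCT, MLANA and FZD6. PLIN2 and RASD1 were then not called in the average of the lean lines either.

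The average of the lean lines differed from broiler at 733 probe sets (1.94%), 288 higher and 445 lower. Fayoumi alone differed at 686 (1.82%) and Leghorn alone at 661 (1.75%), against the same 5 broiler arrays. The rule kept 241 of the 733. Of the others, 205 passed in Fayoumi but not Leghorn, 210 in Leghorn but not Fayoumi, and 76 in neither alone. The count in the average contrast was 448 without broiler 2 and 453 without broiler 4, and the rule kept 159 without Fayoumi 2 and 159 without Fayoumi 4. At 209 of the 241, all 10 lean arrays lay beyond all 5 broiler arrays, as they did at 417 of all chicken probe sets (1.11%). The median log2 difference was 1.47 among the higher probe sets and -1.36 among the lower ones, and 177 differed by over 1. Sizes ran from 0.05 to 9.04. On the lower side of the comparison, 64 probe sets sat mostly at background or at a value shared by several arrays. For those, levels are given and no fold. Over 25 alternative fits, the named genes that met the rule least often were RASD1 in 7, WIF1 in 9, PLIN2 in 11, ELOVL6 in 13 and DCT in 16. All named genes kept their direction in every fit. Their lean and broiler arrays did not overlap, so fits that only left arrays out could not have reversed them.

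Among genes without overlap between the lean and broiler arrays and with a symbol other than a LOC number, SRI had the largest difference upward. SRI encodes sorcin, a protein that binds calcium and regulates its release inside cells. It was at 8.51, 2.93, 8.83, 4.08 and 5.84 in broiler, 11.89, 11.78, 11.80, 11.77 and 11.90 in Fayoumi and 11.76, 12.78, 12.42, 12.37 and 12.73 in Leghorn. The lean arrays lay close together, while the broiler arrays were widely spread, with broiler 3 and 5 the lowest. The array labelled broiler 1 read 12.28 and that labelled Leghorn 2 read 2.64. The log2 difference was 6.08 (SE 0.82), 67.7-fold, and 7.04 without the 5 arrays that stood apart. Other probe sets of SRI did not share it. Their differences were -0.06 and -0.19, at broiler means of 11.60 and 12.40.

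UBXN4 and HERC4 act in protein breakdown, UBXN4 at the endoplasmic reticulum and HERC4 as a ubiquitin ligase. UBXN4 was at 2.55, 3.32, 3.35, 3.51 and 4.23 in broiler, against 6.69 to 7.21 in Fayoumi and 6.79 to 6.93 in Leghorn. Its log2 difference was 3.48 (SE 0.20), 11.1-fold, and 2.99 without the arrays that stood apart. HERC4 sat at 2.73, 2.73, 2.26, 2.73 and 2.54 in broiler, against 5.97 to 6.86 in Fayoumi and 5.93 to 7.07 in Leghorn, a difference of 3.83 (SE 0.18; 3.73 without those arrays). In broiler HERC4 was mostly at a shared value near background, so no fold is given. Its other probe sets had means of 8.04 and 7.66 in broiler, 9.52 and 9.86 in Fayoumi and 8.45 and 8.77 in Leghorn, also higher in both lines. Chosen after their values were seen, CUL1, BIRC2, USPL1 and LONRF3 of the ubiquitin and SUMO systems were also higher, by 1.49, 1.45, 1.21 and 0.90. UBE2T and FBXL8 of the same systems were lower, with log2 differences of -1.66 and -1.41. NAE1 was lower as well (-0.70), while another NAE1 probe set was higher in both lean lines, with means of 3.42, 4.14 and 3.83. One UBXN4 probe set had means of 10.01 in broiler, 10.40 in Fayoumi and 10.15 in Leghorn, and another had 9.11, 9.30 and 8.95, so the gene's brighter probe sets did not share the difference.

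MOXD1, a copper-containing monooxygenase related to dopamine beta-hydroxylase, was at 8.78, 8.96, 8.54, 5.59 and 5.73 in broiler. It was at 10.73, 9.96, 10.75, 10.80 and 10.92 in Fayoumi and 10.22, 11.30, 10.83, 11.21 and 11.16 in Leghorn. Broiler 5 and 6 were far below broiler 2, 3 and 4, and all broiler arrays were below every lean array. The difference of 3.27 (SE 0.56, 9.64-fold) was 5.03 without the arrays that stood apart. GIT2, which inactivates Arf GTPases at membranes, was higher at both of its selected probe sets. One was at 3.09 to 4.14 in broiler, 6.27 to 6.67 in Fayoumi and 6.07 to 6.58 in Leghorn, 6.09-fold higher (log2 difference 2.61, SE 0.18; 2.19 without the arrays that stood apart). The other was 2.24-fold higher (1.16, SE 0.11). The remaining GIT2 probe set had means of 4.10 in broiler, 4.45 in Fayoumi and 4.31 in Leghorn. Further genes were chosen after their values were seen. RAB22A, an endosomal GTPase, was 2.02-fold and 1.93-fold higher at its 2 probe sets, ATP11B, a lipid flippase, 3.23-fold and RIN2, a Rab activator, 2.50-fold. The brightest other probe set had means of 7.44, 7.67 and 7.28 for ATP11B and 6.51, 6.89 and 6.31 for RIN2, lower than broiler in Leghorn.

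On the lower side, CA5A and SLC4A1AP were at background on every lean array. CA5A, the mitochondrial carbonic anhydrase that supplies bicarbonate to pyruvate carboxylase, was at 7.39, 8.15, 7.27, 6.36 and 6.21 in broiler and 2.26 on all 10 lean arrays, not above background on any of them. SLC4A1AP, the adaptor protein kanadaptin, was at 6.97, 5.83, 7.35, 6.68 and 7.08 in broiler and likewise not above background on any lean array. Set against the dimmest signal that exceeded background on an array, CA5A was at least 27.6-fold and SLC4A1AP at least 22.5-fold lower in the lean lines. The log2 differences were -4.82 (SE 0.25) for CA5A and -4.52 (SE 0.18) for SLC4A1AP, and -4.03 and -4.62 without the arrays that stood apart.

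At both genes another probe set read a similar level in all lines. The other CA5A probe set above background had means of 10.61 in broiler, 10.30 in Fayoumi and 10.65 in Leghorn. Those of SLC4A1AP had 3.78 and 6.25 in broiler, 3.95 and 6.38 in Fayoumi and 3.91 and 6.16 in Leghorn. The differences given above for these genes belong to 1 probe set of each.

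RASD1, a Ras-like GTPase induced by glucocorticoids, was at 10.42, 8.86, 10.46, 8.11 and 7.81 in broiler, 5.04, 6.57, 7.52, 7.20 and 6.11 in Fayoumi and 4.56, 4.50, 5.53, 4.63 and 5.29 in Leghorn. Its difference of -3.44 (SE 0.52, 10.8-fold) was -2.26 without the arrays that stood apart, and the broiler arrays 2 and 4 were the highest. The second RASD1 probe set went the same way, with means of 12.64, 10.74 and 9.42. DEPDC5, a subunit of the GATOR1 complex that restrains mTORC1, was at 4.36 to 5.98 in broiler and 2.50 to 2.60 on the lean arrays, a difference of -2.66 (SE 0.20) against a shared low value. METTL5, which methylates 18S ribosomal RNA, was at 6.29 to 7.35 in broiler and 3.71 to 4.71 in the lean lines, 6.61-fold lower (-2.72, SE 0.20). MAP7D3, a microtubule-associated protein, was 8.19-fold lower (-3.03, SE 0.34), at 6.86 ± 0.40 (SD, n = 5) in broiler, 3.15 ± 0.39 in Fayoumi and 4.51 ± 0.92 in Leghorn. Its other probe sets were higher in both lean lines, with means of 6.16 and 6.10 in broiler, 7.06 and 6.86 in Fayoumi and 6.50 and 6.40 in Leghorn. CDC14A, a phosphatase of the cell cycle and of cilia, was at 3.81 to 6.35 in broiler and 2.26 to 2.78 in the lean lines. SMKR1, listed by RefSeq as a noncoding RNA gene, was at 4.25 to 6.32 in broiler and 2.39 to 3.18 in the lean lines. Without the arrays that stood apart the differences of DEPDC5, METTL5, MAP7D3, CDC14A and SMKR1 were -2.06, -2.19, -2.91, -3.86 and -1.88, against -2.66, -2.72, -3.03, -3.06 and -2.59 with them.

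**Figure D2:**
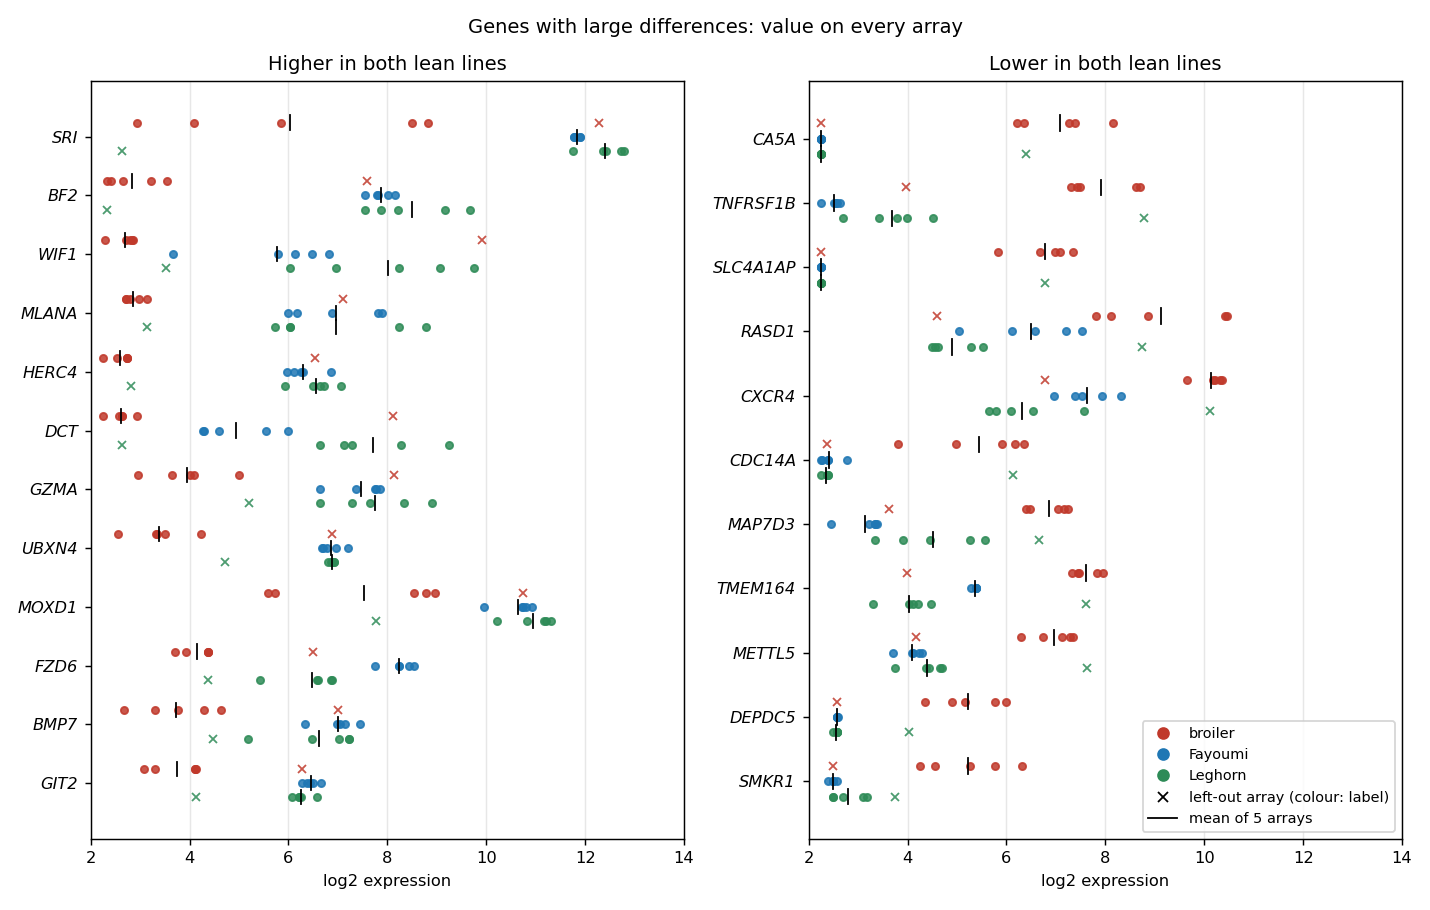
Log2 expression (horizontal axis) of 12 named genes on the higher side and 11 on the lower side with large differences and no overlap, 1 row of points per line and gene. Circles are single arrays, bars the mean of 5 arrays and crosses the 2 arrays left out, coloured by label. Every lean circle lies beyond every broiler circle because the genes were chosen so, while the crosses fall with the other line at most genes.

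The largest differences of all were at probe sets without a gene name here. The largest upward one was at 3.14 ± 0.91 (SD, n = 5) in broiler, 12.94 ± 0.27 in Fayoumi and 11.43 ± 0.33 in Leghorn, a log2 difference of 9.04 (SE 0.31). The next differed by 7.61 (SE 0.36) and the largest downward one, at 9.03 ± 1.21 in broiler and 2.34 ± 0.06 and 2.31 ± 0.01 in Fayoumi and Leghorn, by -6.70 (SE 0.38). Of these 3, the last 2 carry the ending _x_at, which marks probes that can match several transcripts. It is carried by 6 of the 241 (2.49%), against 1.22% of all chicken probe sets. LOC770705, a protein-coding gene without a descriptive name, was higher at both of its probe sets. The brighter one was at 6.94, 5.07, 3.34, 8.05 and 9.25 in broiler, 12.78 to 13.85 in Fayoumi and 14.32 to 14.79 in Leghorn. Its log2 difference was 7.46 (SE 0.75), and 5.34 without the arrays that stood apart. Broiler 5 and 6 were the highest of the broiler arrays.

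The selected genes that reshape fatty acids or move sterols were lower. SCD5, a stearoyl-CoA desaturase that introduces the double bond of monounsaturated fatty acids, was at 9.24, 9.40, 9.94, 9.54 and 9.56 in broiler. It was at 7.63, 7.87, 7.82, 7.87 and 7.37 in Fayoumi and 8.25, 8.85, 8.94, 8.92 and 8.41 in Leghorn, so that no lean array reached the lowest broiler array and Leghorn lay between the other lines. The log2 difference was -1.34 (SE 0.14), 2.53-fold, and -1.34 without the arrays that stood apart. Another SCD5 probe set above background went the same way, with means of 7.51 in broiler, 5.55 in Fayoumi and 6.59 in Leghorn. ELOVL6, which elongates palmitate to stearate, was at 6.24, 6.29, 5.83, 7.06 and 6.28 in broiler, 5.51, 5.48, 5.76, 5.04 and 5.20 in Fayoumi and 5.10, 4.99, 5.01, 4.65 and 4.73 in Leghorn. It was 2.29-fold lower (-1.19, SE 0.18; -1.51 without the arrays that stood apart, where it no longer met the rule), with Fayoumi 3 only just under broiler 4, and its brighter probe sets had means of 7.99 and 8.51 in broiler, 7.72 and 8.29 in Fayoumi and 6.98 and 7.32 in Leghorn. STARD4, which carries cholesterol between membranes, was at 4.10, 3.68, 4.0, 3.52 and 4.23 in broiler and 2.74 to 2.77 on the lean arrays, a difference of -1.14 (-1.11 without those arrays). Its other probe set went the opposite way in both lines, with means of 7.55 in broiler, 8.73 in Fayoumi and 7.85 in Leghorn.

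The lists these genes come from pointed the same way without having many selected members. Of 21 measured genes of fatty acid synthesis and desaturation, 0 were selected as higher and 2 as lower, against 1.23% of all 13008 genes selected in either direction. With each gene taken at its brightest probe set and by the average of the lean lines, 1 of the 21 was higher and 18 were lower. In each lean line alike 13 were lower and 1 was higher, against 36.4% and 27.0% of all genes. The list's median was -0.43 by the average, against 0 over all genes. The median was -0.22 in Fayoumi, -0.59 in Leghorn and -0.29 without the arrays that stood apart. Of 21 genes of cholesterol synthesis and uptake, 1, STARD4, was selected as lower. At the brightest probe sets 19 lay lower and 2 higher, with STARD4 among the higher. In each lean line alike 14 were lower and 1 was higher. The median was -0.55 (-0.26 in Fayoumi, -0.77 in Leghorn, -0.40 without the arrays that stood apart). The 25 genes of fatty acid uptake and triglyceride synthesis had a median of 0.02, with 15 higher, 10 lower and 0 selected, and -0.14 without the arrays that stood apart. Both synthesis lists had a lower median in Leghorn than in Fayoumi, which was not tested. Per array, against each gene's mean over the 15 arrays, the fatty acid list was at -0.70 on Leghorn 1. It was at -0.08 to 0 on the other Leghorn arrays and -0.06 to 0.01 in Fayoumi. In broiler it was at 0.54 and 0.57 on broiler 2 and 4, and at 0.17, 0.04 and 0.03 on broiler 3, 5 and 6. The cholesterol list was at -0.72 on Leghorn 1, -0.47 to -0.02 on the others and -0.04 to 0.31 in Fayoumi. In broiler that list was at 0.73 and 0.76 on broiler 2 and 4. On broiler 3, 5 and 6 it was at -0.02, 0.29 and 0.07, within the Fayoumi range. Adipocyte markers were also lowest on Leghorn 1, at -1.02.

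PLIN2, a perilipin on the surface of lipid droplets, was higher in the lean lines. It was at 7.78, 7.78, 8.33, 7.20 and 7.66 in broiler, 9.60, 8.75, 8.82, 8.79 and 9.07 in Fayoumi and 9.89, 9.98, 8.73, 9.19 and 9.45 in Leghorn. It was 2.79-fold higher (1.48, SE 0.23; 1.71 without the arrays that stood apart), with every lean array above every broiler array. The other PLIN2 probe set did not share the direction in Fayoumi, with means of 9.56 in broiler, 9.13 in Fayoumi and 11.05 in Leghorn. It was the selected member of 13 measured genes of lipolysis and lipid droplets, where 7 lay higher and 6 lower.

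The selected enzymes of fatty acid, amino acid and aldehyde breakdown were lower. MLYCD degrades malonyl-CoA, the inhibitor of fatty acid entry into mitochondria. It was at 7.46, 7.13, 7.46, 7.09 and 7.09 in broiler, 5.98, 6.10, 6.09, 5.86 and 6.14 in Fayoumi and 6.29, 6.44, 6.71, 6.87 and 6.18 in Leghorn, 1.97-fold lower (-0.98, SE 0.11; -0.76 without the arrays that stood apart). It was the selected member of 23 measured genes of mitochondrial fatty acid oxidation, whose median was 0.01 with 13 higher and 10 lower. HIBCH, an enzyme of valine breakdown, was at 5.44, 5.83, 5.86, 5.36 and 5.78 in broiler, 4.47, 4.53, 4.46, 4.74 and 4.68 in Fayoumi and 5.17, 4.51, 4.87, 4.79 and 4.62 in Leghorn. It was 1.96-fold lower (-0.97, SE 0.11; -0.81 without those arrays), and its other probe set had means of 7.83, 6.84 and 7.26. None of the 23 measured genes of peroxisomal oxidation was selected, and their median was -0.13.

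Several further metabolic genes, chosen after their values were seen, had narrow spreads. ALDH2, the mitochondrial aldehyde dehydrogenase, was at 11.53, 11.66, 11.77, 11.42 and 11.49 in broiler, 10.81, 10.79, 10.73, 10.81 and 10.78 in Fayoumi and 10.43, 10.31, 10.40, 10.63 and 10.65 in Leghorn, 1.92-fold lower (-0.94, SE 0.06; -0.82 without the arrays that stood apart). GSTK1, which in mouse fat cells promotes assembly of adiponectin, was 1.73-fold lower, at 10.64 ± 0.18 (SD, n = 5) in broiler, 9.67 ± 0.11 in Fayoumi and 10.02 ± 0.22 in Leghorn. BDH1B, named after the ketone body enzyme 3-hydroxybutyrate dehydrogenase, was 3.45-fold lower at 8.0 ± 0.54, 5.82 ± 0.31 and 6.62 ± 0.43. RDH10, which starts retinoic acid synthesis by oxidising retinol, was 1.89-fold lower at each of its 2 selected probe sets, and a further one had means of 6.01, 4.95 and 5.13. CRYM, a thyroid hormone binding protein, was 4.06-fold lower. Without the arrays that stood apart, the differences of GSTK1, BDH1B and CRYM were -0.67, -1.31 and -1.74, against -0.79, -1.78 and -2.02 with them. All of these were lower on every lean array than on any broiler array, with the exception of RDH10, where Leghorn 1 lay above broiler 4.

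A few metabolic genes were higher. PRKAA1 encodes a catalytic subunit of the AMP-activated kinase, the cell's energy sensor. It was at 3.46, 4.19, 3.66, 4.23 and 4.13 in broiler, 5.57, 5.42, 5.43, 5.29 and 5.79 in Fayoumi and 5.10, 4.99, 5.58, 5.70 and 4.16 in Leghorn, so that Leghorn 6 lay within the broiler range. The log2 difference was 1.37 (SE 0.23, 2.58-fold; 1.30 without the arrays that stood apart), and a dimmer probe set had means of 2.48, 3.08 and 3.10. NUDT7, a peroxisomal enzyme that splits coenzyme A, was 2.05-fold higher (1.03, SE 0.19; 0.88 without those arrays), while its brightest probe set had means of 9.30 in broiler, 9.02 in Fayoumi and 8.81 in Leghorn. CYBRD1, a ferric reductase of iron uptake, was 2.29-fold higher (1.20, SE 0.18; 0.86 without those arrays).

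**Figure D3:**
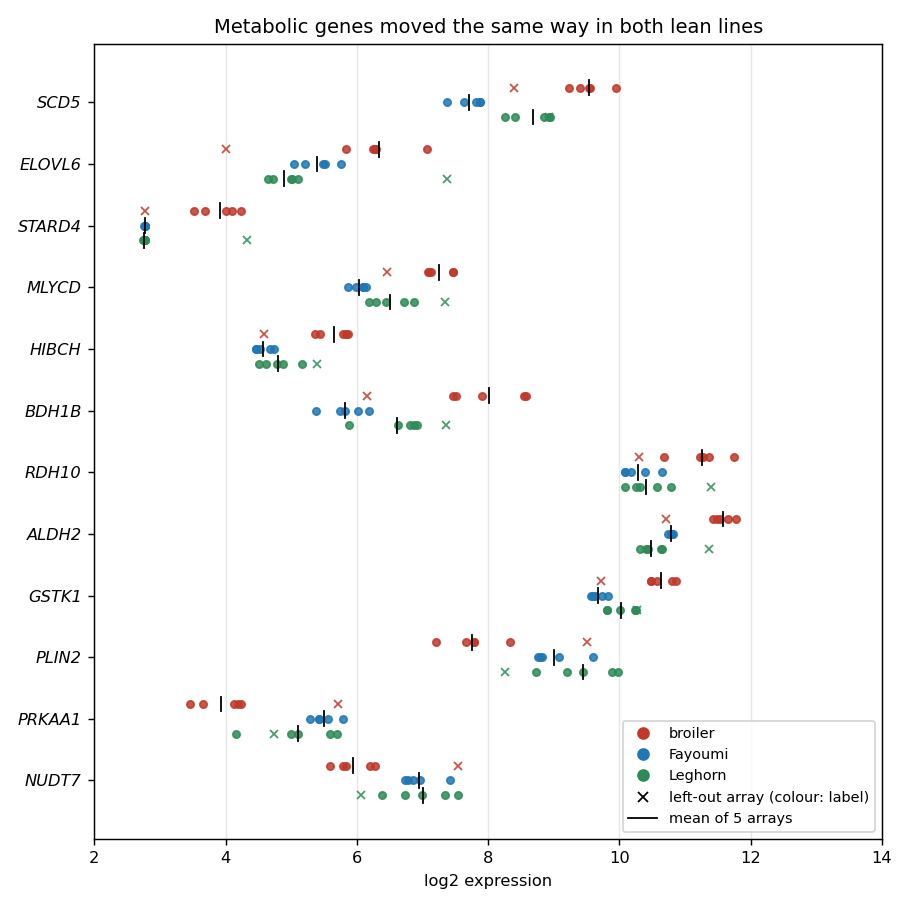
Log2 expression (horizontal axis) of 12 metabolic genes among the 241 probe sets, 1 row of points per line and gene. Circles are single arrays, bars the mean of 5 arrays and crosses the 2 arrays left out; SCD5 to GSTK1 lie lower and PLIN2, PRKAA1 and NUDT7 higher in both lean lines.

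Immune genes stood on both sides. BF2 encodes the class I histocompatibility chain that presents peptides to cytotoxic T cells. It was at 2.66, 3.21, 3.55, 2.41 and 2.32 in broiler, 7.78, 8.02, 7.81, 7.55 and 8.16 in Fayoumi and 8.21, 9.18, 7.86, 7.55 and 9.68 in Leghorn, 40.8-fold higher (5.35, SE 0.33; 5.51 without the arrays that stood apart). A brighter BF2 probe set was 4.02-fold higher, at 10.11, 10.23, 10.31, 9.20 and 9.10 in broiler, 12.23, 12.28, 12.35, 12.25 and 12.54 in Fayoumi and 11.30, 11.60, 10.49, 10.86 and 12.05 in Leghorn. Both carry the ending _x_at, so signal from the neighbouring class I gene BF1 cannot be told apart from that of BF2. B2M, the light chain that pairs with every class I molecule, was at means of 14.73, 14.70 and 14.70, and BF2 was the selected member of 14 measured antigen presentation genes, of which 4 lay higher and 10 lower, with a median of -0.08 (0.08 without the arrays that stood apart).

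GZMA and GZMK, granzymes of cytotoxic lymphocytes, were higher. GZMA was at 3.65, 4.02, 2.96, 4.10 and 5.01 in broiler, 6.64, 7.77, 7.84, 7.36 and 7.76 in Fayoumi and 7.29, 7.65, 8.33, 8.90 and 6.63 in Leghorn, 12.7-fold higher (3.67, SE 0.39; 3.27 without the arrays that stood apart). GZMK was at 2.78, 3.20, 2.68, 3.17 and 3.40 in broiler, 4.07, 4.69, 3.93, 4.51 and 3.71 in Fayoumi and 4.42, 4.90, 5.13, 5.25 and 4.30 in Leghorn, 2.72-fold higher (1.44, SE 0.21; 1.27 without those arrays). Both genes were higher on every lean array than on any broiler array, and they lie next to each other in the chicken genome with no protein-coding gene between them. TRBV6-5, a variable segment of the T cell receptor beta chain, was 1.99-fold higher (1.0, SE 0.19). CHIR-IG1-5, of the chicken immunoglobulin-like receptor family, was 4.52-fold higher (2.18, SE 0.38).

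T lymphocyte markers as a whole overlapped between the lines. Of the 17 measured markers, GZMA was the selected one, 13 lay higher and 3 lower, and the median was 0.12 (0.14 without the arrays that stood apart). The summed level of the list was 9.96 to 11.41 in broiler, 10.26 to 10.89 in Fayoumi and 10.59 to 11.85 in Leghorn. In each lean line alike 8 of the 17 were higher and 2 lower, against 27.0% and 36.4% of all genes. CD3D, a chain of the T cell receptor complex, had means of 9.20, 8.90 and 9.92, and CD3E had 8.44, 8.39 and 9.41. CD8A had 4.73, 4.88 and 5.0, and CD8BP had 4.21, 4.55 and 4.55. LCK and CCR7 were not above background on any array. The part of T cell number in the granzyme differences was not tested.

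Among cytokine genes and receptors, CXCR4 and TNFRSF1B were lower. CXCR4, the receptor of the chemokine CXCL12, was at 10.22, 9.64, 10.35, 10.17 and 10.32 in broiler, 6.97, 7.93, 8.31, 7.53 and 7.38 in Fayoumi and 5.79, 6.08, 6.53, 5.64 and 7.56 in Leghorn. Every broiler array was well above every lean array, with broiler 3 the lowest of its line. The gene was 8.99-fold lower (-3.17, SE 0.30; -3.44 without the arrays that stood apart). TNFRSF1B, a receptor of tumour necrosis factor, was at 7.32, 7.48, 7.43, 8.63 and 8.71 in broiler, 2.26, 2.63, 2.56, 2.57 and 2.51 in Fayoumi and 2.69, 3.42, 3.99, 4.51 and 3.78 in Leghorn. It was 28.2-fold lower (-4.82, SE 0.31; -5.55 without those arrays), while its brightest probe set had means of 9.46, 10.26 and 9.13. LGALS1B, a galectin 1 gene, was lower at both selected probe sets, with log2 differences of -2.07 and -1.59.

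Higher in this group were IL1RL1, IL6 and TNFRSF9. IL1RL1, the receptor of interleukin 33, was at 4.27, 5.60, 4.75, 5.44 and 6.03 in broiler, 8.73, 8.52, 7.37, 7.37 and 7.53 in Fayoumi and 7.56, 8.0, 7.50, 8.44 and 6.41 in Leghorn, 5.77-fold higher (2.53, SE 0.38; 2.14 without the arrays that stood apart). IL6, a cytokine that fat tissue itself secretes, was at 4.22, 3.66, 3.78, 3.66 and 3.66 in broiler, 5.47, 5.41, 5.0, 5.32 and 5.65 in Fayoumi and 4.27, 4.97, 4.81, 5.51 and 5.09 in Leghorn, a log2 difference of 1.35 (SE 0.18) against mostly shared broiler values (1.46 without those arrays). TNFRSF9, a costimulatory receptor of T cells, was 1.69-fold higher (0.76, SE 0.10; 0.57 without those arrays). Over 46 measured cytokines and receptors, these 3 and the 2 lower genes were selected, against 1.23% of all genes. The list was chosen after values were seen, so that count is a description only. In it 21 genes lay higher and 19 lower, and the median was 0. The 17 macrophage markers and 22 interferon-stimulated genes held no selected gene and had medians of 0.10 and 0.08.

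The pigment cell genes MLANA and DCT were higher in both lean lines. MLANA, a melanosome protein, was at 2.71, 2.79, 3.13, 2.98 and 2.72 in broiler, 6.0, 7.82, 7.88, 6.18 and 6.88 in Fayoumi and 5.74, 8.79, 6.03, 6.03 and 8.24 in Leghorn. DCT, the dopachrome tautomerase of melanin synthesis, was at 2.94, 2.58, 2.26, 2.64 and 2.64 in broiler, 4.27, 5.99, 5.55, 4.60 and 4.28 in Fayoumi and 6.63, 9.25, 7.12, 7.29 and 8.28 in Leghorn. MLANA was 17.1-fold higher (4.09, SE 0.53; 3.59 without the arrays that stood apart), and DCT differed by 3.71 (SE 0.41; 3.33 without them) from broiler values at or near background. Both were above every broiler array on every lean array, and DCT was higher in Leghorn than in Fayoumi.

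The 19 measured melanocyte and pigment genes, a list chosen after these values were seen, had a median of 0.18 (0.06 without the arrays that stood apart). Of the 17 besides MLANA and DCT, 13 were above background on at least 1 array, 11 of them higher and 2 lower. The summed level of the 17 was 8.99 to 9.74 in broiler, 10.04 to 10.28 in Fayoumi and 8.92 to 9.89 in Leghorn, so that Leghorn overlapped broiler. With MLANA and DCT, which were chosen for being higher, it was 9.03 to 9.76, 10.22 to 10.58 and 10.05 to 10.91. MITF, the master transcription factor of melanocytes, had means of 6.57 in broiler, 8.34 in Fayoumi and 7.47 in Leghorn. TYRP1 had 2.74, 4.48 and 3.61. TYR, the enzyme that starts melanin synthesis, was above background on 3 of 15 arrays, PMEL on 3, and SLC45A2, MLPH, TRPM1 and RAB38 on 0. The part of pigment cell number in these differences was not tested.

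Of the Wnt and bone morphogenetic protein pathways, the antagonist WIF1, the receptor FZD6 and the ligand BMP7 were higher. WIF1, a secreted protein that binds and inhibits Wnt ligands, was at 2.71, 2.80, 2.29, 2.85 and 2.83 in broiler, 3.66, 6.47, 6.82, 5.79 and 6.12 in Fayoumi and 8.23, 6.03, 9.06, 9.75 and 6.97 in Leghorn, 18.3-fold higher (4.19, SE 0.61; 4.55 without the arrays that stood apart). The spread within each lean line was wide, and Fayoumi 1 was the lowest lean array. FZD6, a Wnt receptor, was at 3.70, 4.37, 4.37, 3.93 and 4.37 in broiler, 7.75, 8.23, 8.54, 8.43 and 8.24 in Fayoumi and 5.43, 6.58, 6.60, 6.88 and 6.86 in Leghorn, a log2 difference of 3.21 (SE 0.23; 3.12 without those arrays). Brighter FZD6 probe sets differed less, with means of 8.72, 9.44 and 9.35 at one and 9.49, 9.70 and 9.73 at the other. BMP7, which promotes brown fat formation in mice, was at 3.31, 4.63, 2.68, 3.77 and 4.29 in broiler, 7.05, 6.99, 7.46, 7.15 and 6.33 in Fayoumi and 7.03, 6.48, 7.21, 7.22 and 5.18 in Leghorn, 8.42-fold higher (3.07, SE 0.38; 3.04 without those arrays). Its other probe set above background had means of 2.70, 3.66 and 3.36. Of 37 measured genes of these pathways, 3 were selected as higher and 0 as lower, against 0.469% and 0.761% of all genes. The list was chosen after values were seen, so that count is a description only. In it 17 genes lay higher and 19 lower, and the median was -0.01. WIF1 and its neighbour LEMD3, a nuclear envelope protein, were both higher, LEMD3 by 0.80 (SE 0.10).

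The selected genes of nucleotide supply and the selected selenoproteins were lower. PRPSAP1, which associates with phosphoribosyl pyrophosphate synthetase, was lower at 2 probe sets. The brighter was at 8.85, 8.51, 8.71, 8.02 and 8.41 in broiler, 6.80, 6.75, 6.98, 7.0 and 7.09 in Fayoumi and 5.62, 7.13, 6.45, 6.11 and 7.32 in Leghorn, 3.43-fold lower (-1.78, SE 0.25; -1.72 without the arrays that stood apart). HPRT1, the purine salvage enzyme, was 2.69-fold lower (-1.43, SE 0.21), while its brighter probe set had means of 8.96, 8.94 and 9.07. Among 18 measured purine genes, a list chosen after values were seen, 2 were selected as lower, against 0.761% of all genes. The list's median was -0.02 (0.14 without the arrays that stood apart). SELENOW, a selenoprotein abundant in muscle, was at 10.23, 10.63, 10.19, 9.93 and 9.74 in broiler, 8.49, 8.55, 8.69, 9.0 and 8.52 in Fayoumi and 7.83, 8.29, 8.44, 8.27 and 9.03 in Leghorn, 3.10-fold lower (-1.63, SE 0.18; -1.42 without those arrays). Its brighter probe set had means of 14.24, 13.85 and 13.69. SELENON, a selenoprotein of the endoplasmic reticulum, was at 4.11 to 5.10 in broiler and 2.35 to 3.05 in the lean lines. Of 23 measured selenoproteins, also chosen after values were seen, 2 were selected as lower, against the same 0.761% of all genes. Their median was -0.06 (0.01 without the arrays that stood apart).

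Cell division and DNA maintenance genes, chosen after their values were seen, were also lower. KNSTRN, a spindle protein, was 3.07-fold lower at the probe set where no value was shared, at 5.69 to 6.97 in broiler and 4.45 to 5.24 in the lean lines. INCENP, of the chromosomal passenger complex, was 2.31-fold lower, at 8.66 ± 0.16 (SD, n = 5) in broiler, 7.56 ± 0.43 in Fayoumi and 7.35 ± 0.19 in Leghorn. UBE2T, of Fanconi anaemia repair, was 3.16-fold lower. MCM9, XRCC3 and HELQ of recombination repair were lower, with log2 differences of -2.30, -0.74 and -1.17, against mostly shared values in the lean lines. The other XRCC3 probe set above background was higher in both lean lines, with means of 6.29, 6.34 and 6.69, and that of HELQ had 5.12, 5.62 and 4.95. Of 32 measured cell cycle genes 0 were selected, but 28 lay lower and 4 higher. In each lean line alike 25 were lower and 3 higher, against 36.4% and 27.0% of all genes. Their median was -0.44, with -0.57 in Fayoumi, -0.30 in Leghorn and -0.32 without the arrays that stood apart. Per array the list's median was -0.16 to 0.59 in broiler, highest on broiler 2 and 4. It was -0.48 to 0.33 in Fayoumi and -0.35 to 0.11 in Leghorn. The summed level also overlapped, at 12.13 to 12.93 in broiler, 11.79 to 12.59 in Fayoumi and 11.92 to 12.77 in Leghorn.

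Regulators of transcription and RNA processing, likewise chosen after values were seen, stood on both sides. NFIA, a transcription factor that drives brown fat genes in mice, was at 8.73, 8.83, 9.23, 8.54 and 8.31 in broiler, 7.47, 7.48, 7.49, 7.07 and 7.05 in Fayoumi and 7.06, 7.33, 7.21, 7.23 and 7.23 in Leghorn, 2.76-fold lower (-1.47, SE 0.13; -1.19 without the arrays that stood apart). Its brighter probe set had means of 11.04, 11.57 and 11.31, higher in both lean lines. FOXD1, a transcription factor of the forkhead family, was 3.20-fold higher. The splicing-related genes THRAP3 and SCAF11 were 1.61-fold and 1.55-fold higher, INTS2 of the Integrator complex 1.53-fold and TAF1D of RNA polymerase I 3.33-fold. TAF15 was 1.45-fold lower. Other probe sets of THRAP3 and TAF1D did not all share this, with means of 7.88, 7.82 and 7.95 at one of THRAP3 and 5.67, 5.66 and 5.20 at one of TAF1D. THRAP3 was higher at both selected probe sets, by 0.69 and 0.69, and so was TAF1D, by 1.74 and 1.47.

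Across the 28 marker and pathway lists, 7 held a selected gene and none held over 2. Over all genes 1.23% were selected. The mitochondrial respiratory chain list had 0 selected of 35 measured genes. Its median was -0.27, with 31 genes lower and 4 higher. In each lean line alike 20 were lower and 2 higher, against 36.4% and 27.0% of all genes. NDUFA12, a respiratory chain gene outside the list, was selected as lower, while its other probe set had means of 12.48, 12.10 and 12.54. The sign of the list's median turned, to 0.10, without the arrays that stood apart. Insulin and growth factor genes had 0 selected of 27 and a median of 0.24, which went to 0.02 without them. Skeletal muscle markers had the largest median, 1.62 over 22 genes, with 20 higher and 2 lower and 0 selected. They were uneven between arrays. The list's median was 8.39 on Leghorn 1, 1.70 on Fayoumi 2 and 0.79 on Fayoumi 3, and between -1.20 and -0.56 on the other 12 arrays of the contrast, and its summed level was 12.35 to 14.44 in broiler, 12.81 to 14.46 in Fayoumi and 12.85 to 18.47 in Leghorn. ACTA1, the muscle actin, was above background on all 15 arrays and MB, myoglobin, on 4. Without Leghorn 1 the list's median was 0.53, and 201 of the 241 probe sets met the rule again. All 241 kept their sign, which leaving out an array could not change at the 209 without overlap.

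The other lists held 0 selected genes, apart from the 20 measured genes of branched-chain amino acid and ketone catabolism, where HIBCH was selected and the median was -0.10, and the 19 of retinoid metabolism, a list chosen after values were seen, where RDH10 was selected and the median was -0.01. The 25 measured genes of adipocyte differentiation and adipokines had a median of -0.07, the 24 of glycolysis -0.07, the 22 of the tricarboxylic acid cycle -0.04 (0.15 and 0.08 without the arrays that stood apart) and the 27 of oxidative stress -0.03. The 35 genes of the extracellular matrix had -0.08 and the 23 of protein folding and stress 0.16. Among cell type markers, the 14 of adipocytes had a median of -0.14, the 16 of mesenchymal progenitors -0.31, the 19 of endothelium 0 and the 13 of smooth muscle and pericytes -0.08 (0.06 without those arrays). The 13 markers of B lymphocytes had 0.0, the 13 of erythrocytes 0.01 and the 16 of epithelium, mesothelium and liver 0.04. This last list was uneven, with 0 in Fayoumi, 0.66 in Leghorn and 0.37 without the arrays that stood apart, and array medians of 1.10 on Leghorn 3 and 1.71 on Leghorn 6. Summed adipocyte markers were at 17.48 to 17.75 in broiler, 17.58 to 17.74 in Fayoumi and 17.14 to 17.81 in Leghorn, overlapping between all lines.

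**Figure D4:**
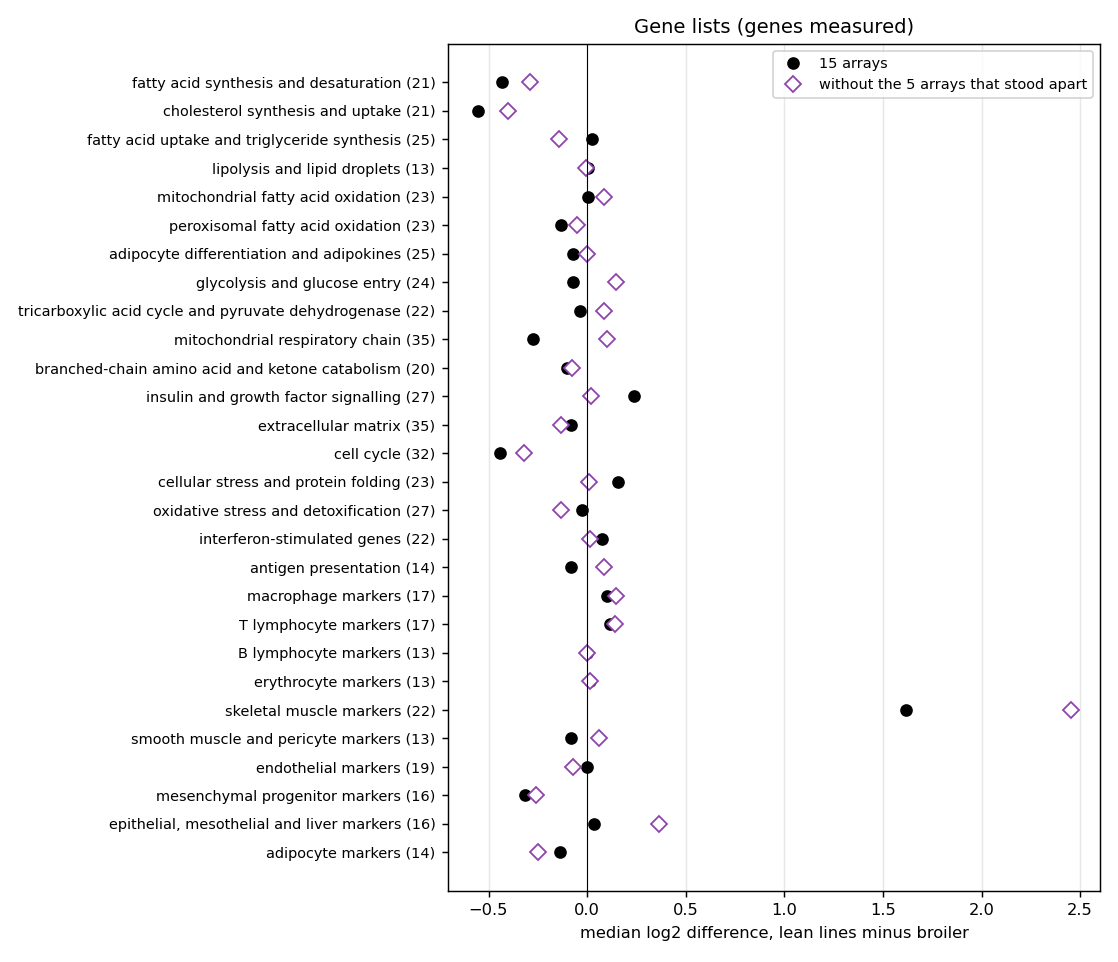
Median log2 difference between the average of the lean lines and broiler (horizontal axis) over the measured genes of each list, whose number stands in parentheses. Filled circles use 15 arrays and open diamonds the 10 that did not stand apart; both lipid synthesis lists and the cell cycle list lie below 0 in both, the respiratory chain list changes sign, and skeletal muscle markers lie highest.

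Whether the lean lines differ from each other at these genes is a question the selection did not answer, although asking for a difference in both lines favours probe sets with similar sizes. Fayoumi differed from Leghorn at 544 of all chicken probe sets (1.44%) and at 11 of the 241. The 2 differences from broiler were within 1.5 times of each other at 203 of the 241, and the larger one was in Fayoumi at 123 and in Leghorn at 114. TMEM164, which remodels ether phospholipids in human cells, was at 7.83, 7.45, 7.95, 7.46 and 7.32 in broiler, 5.39, 5.29, 5.39, 5.39 and 5.39 in Fayoumi and 3.30, 4.20, 4.02, 4.48 and 4.12 in Leghorn. In Fayoumi 4 of 5 arrays shared 1 value. Fayoumi minus Leghorn was 1.34 (SE 0.19, adjusted p = 0.00235). The other TMEM164 probe set above background differed little, with means of 5.64, 5.59 and 5.35 in broiler, Fayoumi and Leghorn. SCD5 was lower in Fayoumi than in Leghorn, a difference of -0.96 (SE 0.17, adjusted p = 0.0107), and lay below every Leghorn array on every Fayoumi array. FZD6 was higher in Fayoumi at its selected probe set, by 1.77 (SE 0.27, adjusted p = 0.00403), again without overlap. The brighter FZD6 probe sets did not share this, with means of 9.44 and 9.70 in Fayoumi and 9.35 and 9.73 in Leghorn.

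DCT was higher in Leghorn than in Fayoumi on every array, and the difference was -2.77 (SE 0.48, adjusted p = 0.0106). The dimmer LOC770705 probe set was also higher in Leghorn, a difference of -3.40 (SE 0.65, adjusted p = 0.0206). PQLC3, a membrane protein of the PQ-loop family, was higher in Leghorn, with a difference of -0.75 (SE 0.15, adjusted p = 0.0251). It was not called in 12 of the 25 alternative fits, and over those fits adjusted p ran from 0.00195 to 0.802. The other PQLC3 probe set above background had means of 8.01, 8.40 and 8.04 in broiler, Fayoumi and Leghorn. There Fayoumi was the higher lean line. The call of DCT was lost without the arrays that stood apart, and over all 25 fits its adjusted p ran from 0.00286 to 0.802. That of LOC770705 was lost without those arrays, without Leghorn 3 and without Leghorn 4. FZD6, SCD5, TMEM164 and DCT were called in 24, 23, 23 and 23 of the 25 fits. The other 5 of the 11 are unnamed here, 3 of them higher in Fayoumi than in Leghorn.

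**Figure D5:**
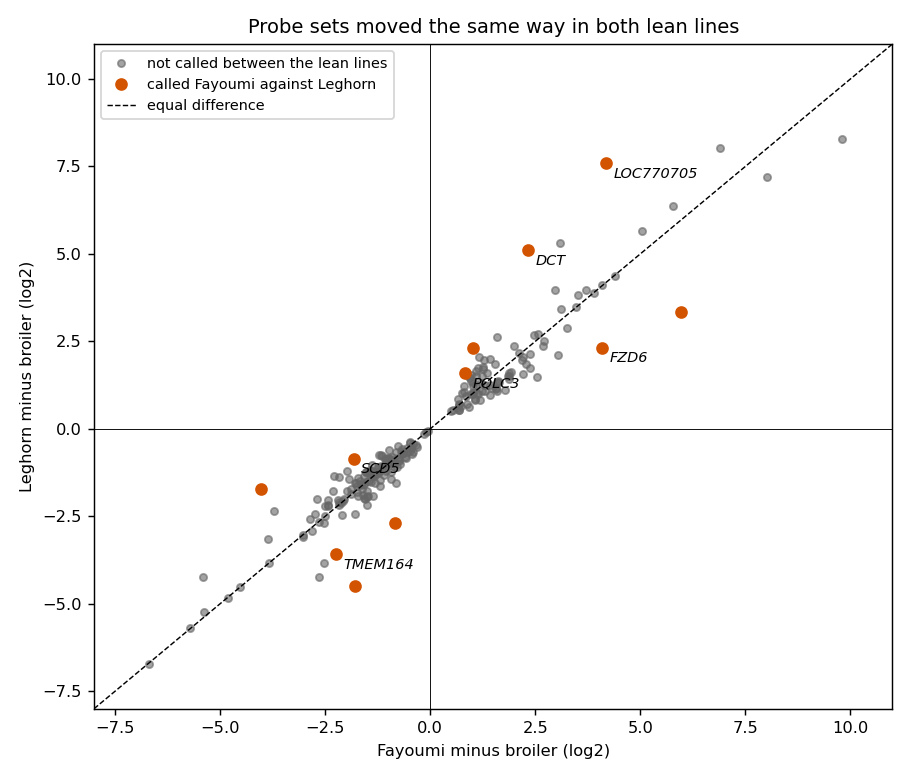
Log2 difference from broiler in Fayoumi (horizontal axis) and in Leghorn (vertical axis) of the 241 probe sets, each against the same 5 broiler arrays. The dashed line marks equal differences; the 11 orange points are those called between Fayoumi and Leghorn, 6 of them named.

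Many differences held for 1 probe set of a gene and not for all. The 176 selected probe sets with 1 symbol stand for the 160 genes, of which 118 have at least 1 other probe set that was not selected. Among 137 such other probe sets clearly above background, which belong to 90 genes, 82 shared the direction of the selected probe set in both lean lines. At 16 genes more than 1 probe set was selected, always in the same direction. Probe sets that were not selected could be called the other way. GULP1 and CLASP2 were selected as lower. Another GULP1 probe set had means of 5.38 in broiler, 9.91 in Fayoumi and 8.96 in Leghorn (limma adjusted p = 0.0282 in the average contrast). Another CLASP2 probe set had 4.05, 3.99 and 6.29 (adjusted p = 0.0174). Among the 160 genes, 4 pairs are direct neighbours in the RefSeq annotation, and each pair went the same way: WIF1 with LEMD3 and GZMA with GZMK upward, and GTF2A1L with STON1 and MFSD6 with HIBCH downward. STON1, an endocytic adaptor, was 2.61-fold lower (-1.39, SE 0.15) and GTF2A1L, a relative of a general transcription factor, 1.98-fold (-0.99, SE 0.14). MFSD6, a transporter-like membrane protein, was 1.55-fold lower (-0.63, SE 0.08).

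At the threshold, the last probe sets kept were those of WIF1, MCM9 and B3GALNT1, with a largest adjusted p over the 3 contrasts of 0.0492, 0.0495 and 0.0496. Just outside lay HAGH, at 10.91 in broiler, 9.58 in Fayoumi and 9.48 in Leghorn, and TCEA2, at 9.50, 8.48 and 8.46, with 0.0508 and 0.0513. B3GALNT1, a glycosyltransferase, was at means of 4.63 ± 1.07 (SD, n = 5), 2.76 ± 0.24 and 2.91 ± 0.11 in the same order.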

How the data were processed

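Adipose RNA of 17 samples had been measured on Affymetrix chicken arrays. The log2 values of the series matrix were deposited by the authors, and the submitters' processing notes name R 2.13.2, RMA and GCRMA without saying which made these values. No scanner files were used, so background correction and normalization were kept as deposited. After 96 control, 57 reporter and 689 accession-named probe sets were left out, 37693 chicken probe sets remained. Genes were named from the platform annotation, updated by gene number through RefSeq (GRCg7b): 27166 probe sets had 1 symbol, 177 several and 10350 none.

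Replicate numbers come from the labels. Fits used limma 3.58.1 in R 4.3.3 with line as a factor over 15 arrays, lmFit, contrasts and eBayes, and Benjamini-Hochberg adjustment over all 37693 probe sets. The settings were also tested on simulated data. Background was 2.29, which 95% of values at the 80 blank or reporter probe sets did not exceed. Of all values, 37.1% were at the lowest value, and array medians ran from 2.43 to 2.54. The number of arrays limits the precision. A fold is 2 to the power of the log2 difference. The summed level of a list is the log2 of its genes' summed unlogged values.

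The probe sets, lists and tests were chosen with earlier results of these data known. Named genes were the 12 with the largest difference in each direction among named genes (no LOC numbers or open reading frame names) without overlap between lean and broiler arrays, and selected genes of the lipid, antigen presentation and T lymphocyte lists. Of these, 1 is not reported here. Other names were chosen after their values were seen. Lists take each gene at its brightest probe set, while counts of selected genes use any probe set. Counts of list genes that lay higher or lower go by the average of the lean lines unless both lines are named. Same-numbered samples did not deviate together, with a median correlation of -0.0419 over 12 pairs. No probe or promoter sequence was used here.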

Additional observations from a re-analysis of the deposited data

Results flagged for a closer look

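In 7 of 80 groups of 5 arrays examined among the named genes, 1 array lay far from the others of its line. Chance flags about 1 in 20 such groups. Broiler 4 read 2.29 at WIF1, against 2.71 to 2.85 on the other broiler arrays. Fayoumi 2 read 9.96 at MOXD1, against 10.73 to 10.92. Leghorn 1 read 5.43 at FZD6, against 6.58 to 6.88. Broiler 3 read 9.64 at CXCR4, against 10.17 to 10.35. At CDC14A, Fayoumi 5 read 2.78 against 2.26 to 2.39, and Leghorn 3 read 2.26 against 2.37 to 2.40. Fayoumi 4 read 2.46 at MAP7D3, against 3.21 to 3.38 on the other Fayoumi arrays.

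The differences from broiler were unequal in the lean lines at 11 probe sets, where limma called Fayoumi minus Leghorn directly. The named ones were TMEM164 at 1.34, FZD6 at 1.77, SCD5 at -0.96, PQLC3 at -0.75, DCT at -2.77 and LOC770705 at -3.40. The unnamed ones had log2 differences of 2.70 (SE 0.41), 1.85 (SE 0.19), 2.63 (SE 0.12), -2.29 (SE 0.28) and -1.30 (SE 0.23). The rule asked for a difference in both lines and so favours small values here.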

How the results depend on the processing

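Main counts were 733 probe sets in the average contrast, 241 moved the same way in both lean lines, 544 between Fayoumi and Leghorn, and 11 of the 241 in that last contrast. With all 17 arrays as labelled the counts were 42, 0, 236 and 1. With replicate number as a block, although same-numbered samples did not deviate together (3 of 12 pairs correlated over 0.1), they were 247, 79, 214 and 5. Array weights gave 1374, 612, 2308 and 45, and an adjusted p under 0.01 gave 317, 97, 271 and 6. A filter on dim probe sets gave 1133, 362 and 837 for the first 3 counts. Without the 5 arrays that stood apart, 953 differed between Fayoumi and Leghorn. With the 10 lean arrays as 1 group the average contrast gave 458. Median centring, which moved the median of all probe sets by -0.06, gave 17 of the selected probe sets between Fayoumi and Leghorn. The average contrast alone with the same sign in both lines kept 689. Leaving out 1 array at a time gave 448 to 1065, 159 to 280, 363 to 661 and 10 to 14. Of 750 alternative values of the 30 named results, 716 kept direction and an adjusted p under 0.05 in the average contrast. In 34 only the direction was kept and 0 reversed, which fits that only left arrays out could not have done at these genes. The full rule was met less often. RASD1 met it in 7 of 25 fits, while the average contrast called it in 23. Of 816 list medians, 26 moved by more than the spread between arrays. The cause of these changes was not tested. Values at or near background limit folds, and 5 arrays a line limit precision.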
